A study of Oncorhynchus mykiss with 6 samples.

Results

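Hsp47, encoded by the entries hsp47 and SERPINH1, is the collagen-specific chaperone of the endoplasmic reticulum (ER), and it was set here against the entries that carry a collagen name, col1a1b, Col18a1 and COL8A2. The entries were chosen by symbol, ignoring case, and 6 of the 1213 listed entries carried one of these 5 symbols. COL8A2 had 2 entries, called here COL8A2 entry 1, the more abundant, and COL8A2 entry 2. The study sequenced ribosome footprints (stretches of mRNA shielded by a ribosome when the rest is digested) in the liver of the rainbow trout, a salmonid of cold water. The heat stress group (24 °C for 8 h) and the control group held 3 libraries each. The control temperature is 18 °C in the sample descriptions and 20 °C in the treatment protocol, and no strain, sex or age is given. The labels describe the exposure as one of liver and do not say whether whole fish were warmed. The molecule label reads nuclear RNA, whereas the protocol describes ribosome footprints, and the values are taken here as footprints. Whether each library stands for its own fish is not stated. The p-values below therefore reflect only how far these libraries scatter, and that scatter may be technical.

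Hsp47 belongs to the serpin family of protease inhibitors but inhibits no protease. It binds procollagen in the ER, travels with it towards the Golgi and is brought back by the KDEL receptors. Collagens are chains that fold into triple helices and are exported to the extracellular matrix. In mammalian liver fibrillar collagen is made mainly by stellate cells, which are a minority beside hepatocytes.

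The table holds only entries that the authors called, with a false discovery rate under 0.05 and at least a 2-fold change, so that every entry described here was already selected on these libraries. Of 5 members with enough footprints to test, 3 rose and 1 fell in heat stress by limma-voom at an adjusted p under 0.05. By the same test 87.5% of all tested entries were called, 71.3% higher and 16.2% lower, so that the number of members called was near the background. Group values in FPKM (footprints scaled to gene length and to library depth) did not overlap in 5 of the 6 members, against 98.7% of all listed entries. The listed entries held 438701 to 863769 footprints per heat stress library and 362308 to 503370 per control library. A level measured in footprints depends on the amount of mRNA as well as on its translation. In whole tissue, fewer cells of a type and less RNA per cell cannot be told apart.

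Both chaperone entries rose. The level of hsp47 was 3047, 3629 and 3905 FPKM in heat stress replicates 1, 2 and 3, against 123, 155 and 105 FPKM in control replicates 1, 2 and 3. The lowest heat stress library lay far above the highest control library, and the spread within groups was small beside that gap, with a coefficient of variation of 12.4% in heat stress and 19.8% in control. The group mean was 27.6-fold higher in heat stress, with a log2 fold change of 4.80 ± 0.22 (SE, n = 3 per group, limma-voom adjusted p = 1.59e-06). This rested on 60881 footprints in heat stress and 2742 in control.

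SERPINH1, the symbol of the same protein in mammals, had a level of 343, 368 and 342 FPKM in heat stress, against 12.2, 12.04 and 7.70 FPKM in control. The 3 heat stress libraries differed from one another by little, and all lay above every control library. Its mean was 32.9-fold higher in heat stress, with a log2 fold change of 5.05 ± 0.24 (SE, limma-voom adjusted p = 1.64e-06). Salmonid genomes carry many duplicated genes, and the way reads shared by near-identical copies were counted is not given in the sources used here. The members had no set of counts in common with each other or with any other entry.

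The more abundant chaperone entry stayed the more abundant one. Within a library the ratio of SERPINH1 to hsp47 FPKM was 0.112, 0.101 and 0.0875 in heat stress and 0.0994, 0.0776 and 0.0731 in control. The ranges of this ratio overlapped, with a difference of 0.27 in log2 ratio (exact permutation test, two-sided, p = 0.2). With 3 against 3 libraries this p-value cannot go below 0.1, so the test does not show that the ratio was unchanged. Among the 1213 listed entries hsp47 ranked 4 by mean FPKM in heat stress and 53 in control, while SERPINH1 ranked 54 in heat stress and 375 in control. By log2 fold change SERPINH1 stood at rank 39 and hsp47 at rank 43 of the 1152 tested entries. The entry hsp47 held 3.05% ± 0.208 of all listed footprints in heat stress and 0.211% ± 0.0407 in control (SD, n = 3).

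**Figure D1:**
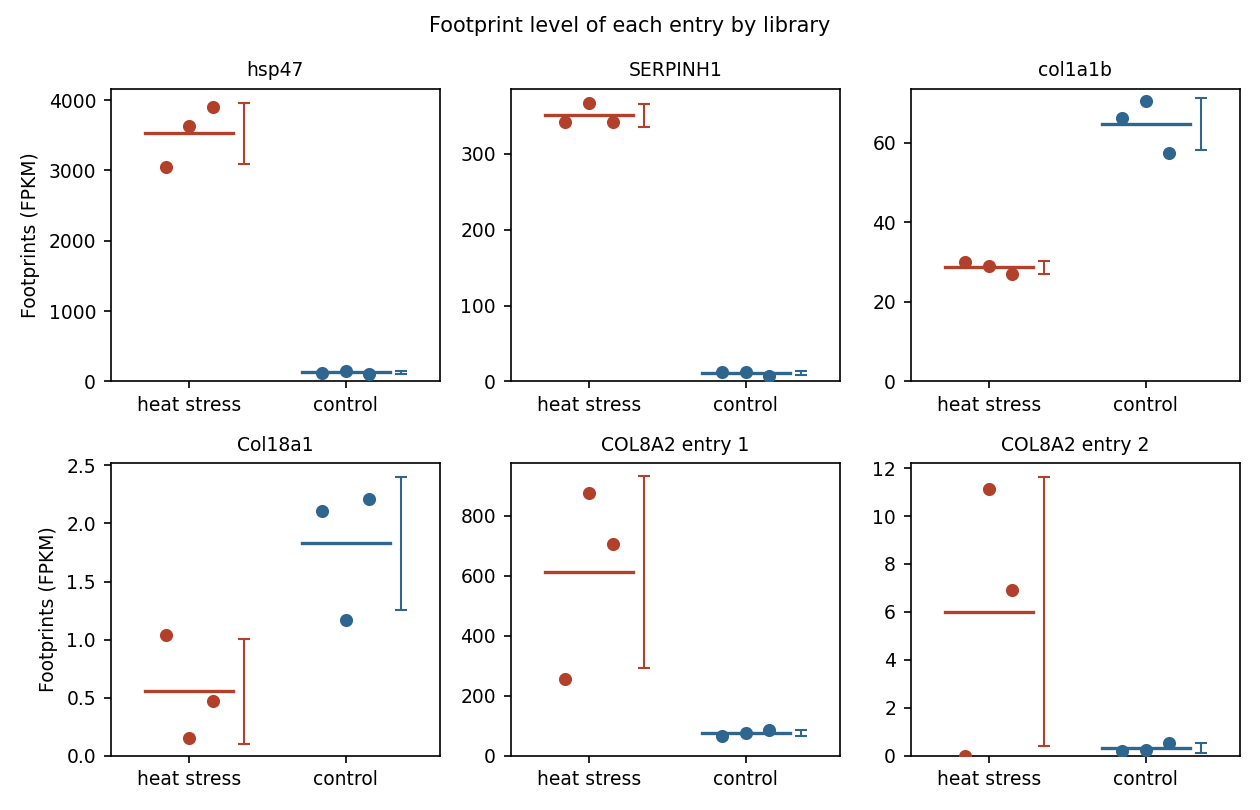
Footprint level in FPKM (vertical axis, linear and from 0, with its own range in each panel) of the 6 entries in heat stress (red, left) and control (blue, right). Points are libraries, lines group means and bars SD. The hsp47 and SERPINH1 points of heat stress lie above all control points, those of col1a1b and Col18a1 below them, and the COL8A2 points of heat stress are spread widely, with replicate 1 the lowest in both entries.

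Of the collagen-named entries, col1a1b fell. Only 4 listed entries carried a collagen symbol, and all of them are members. Other chains, col1a2 and col3a1 among them, were not listed by symbol, so their levels were not analysed here. The gene col1a1b encodes an alpha chain of type I collagen, the main fibril-forming collagen of the matrix. Its level was 30.0, 29.1 and 26.9 FPKM in heat stress, against 66.2, 70.4 and 57.4 FPKM in control. Every heat stress library lay below every control library, with a coefficient of variation of 5.54% in heat stress and 10.2% in control. The control mean was 2.26-fold the heat stress mean, and the log2 fold change was -1.17 ± 0.20 (SE, limma-voom adjusted p = 0.00715), over 1712 footprints in heat stress and 4833 in control.

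Col18a1 encodes type XVIII collagen of basement membranes, whose cleaved end is endostatin. Its level was 1.04, 0.150 and 0.470 FPKM in heat stress, against 2.11, 1.17 and 2.21 FPKM in control. The groups did not overlap, but heat stress replicate 1 and control replicate 2 lay close together, and the heat stress libraries held only 23, 2 and 13 footprints. The log2 fold change of -1.88 ± 0.53 (SE) did not pass (limma-voom adjusted p = 0.130). With TMM factors it was -3.48 and passed (limma-voom adjusted p = 0.0154). These factors shifted the median of all tested entries by -1.55, and 23.1% of all tested entries were called lower with them. Passing there is therefore no added support for a fall. The authors' deposited table gives Col18a1 a false discovery rate of 0.0448. The ratio of Col18a1 to col1a1b overlapped between groups (log2 difference -0.90, exact permutation test, two-sided, p = 0.5). That p-value cannot go below 0.1 here, so the test does not show that the ratio was unchanged. The interval of the log2 fold change of Col18a1 itself ran from -3.06 to -0.70.

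The 2 COL8A2 entries carried a description unlike that of col1a1b and Col18a1. COL8A2 in mammals encodes a chain of type VIII collagen, a short collagen that ends in a domain like that of the complement protein C1q. In the deposited table both entries carry a description that begins "compleme", cut after 8 characters, as do 7 listed entries in all, whereas col1a1b and Col18a1 are described as "collagen". That description is cut at the same width and was carried by 3 listed entries. Entry 1 of the galactosyltransferase gene colgalt1 is among them, so the cut description does not by itself mark a collagen chain. Relative gene length was read from the ratio of count to FPKM after allowing for depth. On this measure COL8A2 entry 1 and entry 2 were 0.595 and 0.641 of the length of hsp47, against 3.48 for col1a1b and 3.71 for Col18a1, while SERPINH1 was 0.998. Neither description nor length was compared with a known COL8A2 gene, so whether these entries are collagen genes was not tested. They are therefore called by their symbol here and not described as collagen genes.

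COL8A2 entry 1 had 257, 876 and 706 FPKM in heat stress, against 65.1, 75.7 and 86.9 FPKM in control. All heat stress libraries lay above control, but replicate 1 lay well below the other two, and the coefficient of variation was 52.1% in heat stress and 14.4% in control. The log2 fold change was 2.84 ± 0.39 (SE, limma-voom adjusted p = 0.00223). With TMM factors, which take most listed entries as unchanged, it was 1.29 and no longer passed (limma-voom adjusted p = 0.197). COL8A2 entry 2 had 0, 11.1 and 6.90 FPKM in heat stress, against 0.180, 0.230 and 0.540 FPKM in control, so that the groups overlapped. It held 58 footprints in heat stress and 4 in control, too few for the test. The authors' deposited values give it a log2 fold change of 4.25 and a false discovery rate of 0.0366. In both entries heat stress replicate 1 was the lowest of its group.

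In heat stress the levels per length ran from hsp47 through COL8A2 entry 1, SERPINH1, col1a1b and COL8A2 entry 2 to Col18a1. COL8A2 entry 1 and SERPINH1 overlapped in this order, as did COL8A2 entry 2 and Col18a1. In control the order was hsp47, COL8A2 entry 1, col1a1b, SERPINH1, Col18a1 and COL8A2 entry 2, with COL8A2 entry 1 and col1a1b overlapping. The level of col1a1b thus lay above that of SERPINH1 in every control library and below it in every heat stress library.

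Set against the collagen-named entries, the chaperone level was higher in heat stress. Summed FPKM of hsp47 and SERPINH1 was 11.8, 4.36 and 5.73 times that of the 4 collagen-named entries in heat stress, against 1.01, 1.13 and 0.769 times in control. The ratio differed by 2.79 on the log2 scale and the groups did not overlap (p = 0.1 in a two-sided exact permutation test, which cannot go lower with 3 against 3 libraries). COL8A2 made up 95.5% of the summed collagen-named FPKM in heat stress and 53.4% in control.

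The value of this ratio therefore turned on COL8A2. Without both COL8A2 entries, an alternative chosen after seeing the data, the chaperone sum was 109, 137 and 155 times that of col1a1b and Col18a1 in heat stress, against 1.98, 2.34 and 1.90 times in control. The log2 difference was then 6.002 (exact permutation test p = 0.1). The chaperone entries lay higher and col1a1b and Col18a1 lower in heat stress without overlap, so this p-value was fixed before the test. For hsp47 over col1a1b alone the ratio was 102, 125 and 145 in heat stress, against 1.86, 2.21 and 1.84 in control. These 2 genes moved in opposite directions, and each passed the test on its own. With TMM factors the log2 fold change was 3.24 for hsp47 and -2.72 for col1a1b. Under these factors 30.7% of all tested entries were called, 7.64% higher and 23.1% lower. They shifted the median of all tested entries by -1.55, less than the rise of hsp47 and in the direction of the fall of col1a1b. That neither sign turned is therefore no check of the opposite directions.

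**Figure D2:**
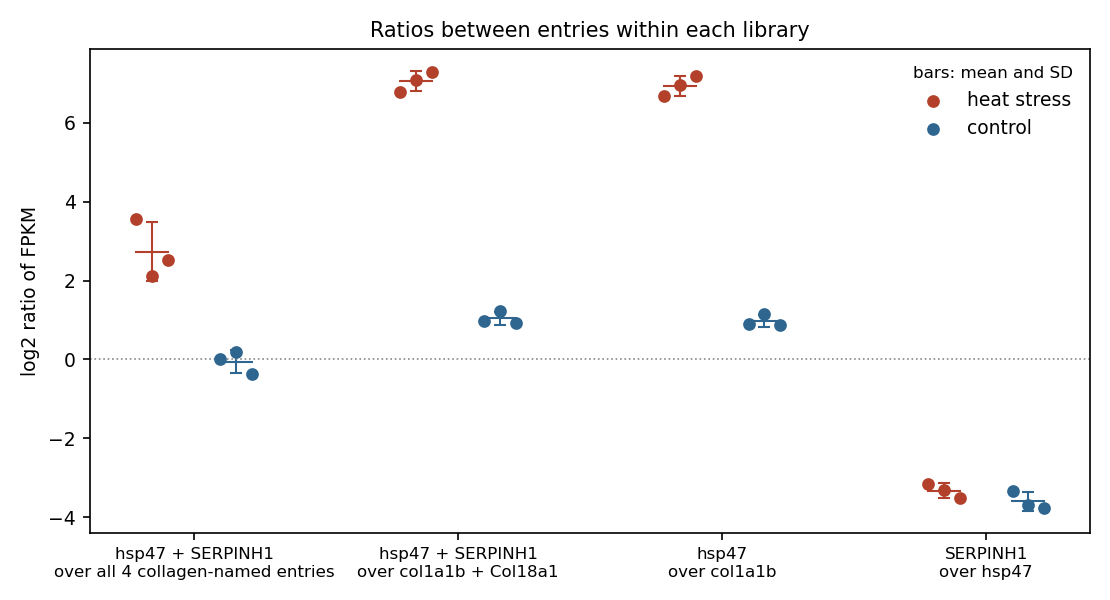
Log2 ratio of FPKM within each library (vertical axis) for 4 pairs of sets, with heat stress in red on the left and control in blue on the right. Points are libraries and bars the mean and SD. The chaperone ratios are higher in all heat stress libraries, with the mean over all collagen-named entries at 2.73 in heat stress and -0.06 in control and the mean over col1a1b and Col18a1 at 7.05 in heat stress and 1.04 in control, whereas SERPINH1 over hsp47 overlaps between groups.

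Markers were looked up beside these levels. Of 16 stellate or fibroblast symbols, 11 endothelial, 9 red cell and 8 leukocyte symbols, 0 were among the listed entries, so their levels were not analysed here. Of 16 hepatocyte symbols, FGA, RBP4 and alb1 were listed, in 5 entries. Their summed level was 5734 to 7173 FPKM in heat stress and 12462 to 14428 FPKM in control. This sum covers only symbols listed because the authors called them changed, so it does not stand for hepatocyte markers in general. The sum was lower in heat stress, as was col1a1b. It does not give the direction of each of the 5 entries, and its part in the result was not tested.

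Other steps of collagen synthesis and turnover were read from a list of enzymes, folding factors, export factors and matrix proteins. Most symbols on it, p4hb, ppib, plod2 and bmp1 among them, had no listed entry, so their levels were not analysed here. The counts therefore do not stand for collagen synthesis and turnover genes in general. The list had 29 listed entries, of which 27 rose, 0 fell and 2 did not pass by limma-voom, against 71.3% of all tested entries that rose. The median log2 fold change was 2.04, against 1.66 over all tested entries. With TMM factors, which shifted the median of all entries by -1.55, 6 rose and 1 fell, against 7.64% higher and 23.1% lower among all tested entries, and the sign turned in 10 entries, 0 of them past the test.

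Hydroxylases modify the prolines and lysines of procollagen. Of 8 entries of hydroxylases and their partner Crtap, 7 rose, against 71.3% of all tested entries. Of these 7, 3 (plod3, P4HA1 and P4HA2 entry 1) also passed with TMM factors. The lysyl hydroxylase gene plod3 had 90.6, 111 and 91.2 FPKM in heat stress, against 6.58, 6.13 and 7.57 FPKM in control (log2 fold change 3.83 ± 0.22, limma-voom adjusted p = 6.16e-06). P4HA1, a catalytic subunit of prolyl 4-hydroxylase, had 27.3, 29.9 and 32.1 FPKM in heat stress, against 0.860, 1.33 and 1.16 FPKM in control. In both genes the groups were far apart. P4HA1 had a log2 fold change of 4.73 ± 0.35, close to that of hsp47, but its control level rested on only 31 footprints. P4HA2 entry 1 averaged 33.7 ± 1.77 FPKM in heat stress and 4.01 ± 0.928 FPKM in control (SD, n = 3), while its other entry, at 9.80 ± 3.62 FPKM in heat stress and 3.41 ± 1.11 FPKM in control, did not pass. The lysyl hydroxylase gene plod1a (log2 fold change 2.57), the prolyl 3-hydroxylase gene p3h1 (2.42) and Crtap (2.20), which forms a complex with it, also rose by recovered depth. With TMM factors their calls were lost, at limma-voom adjusted p = 0.196 for plod1a, 0.569 for p3h1 and 0.688 for Crtap.

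The galactosyltransferase gene colgalt1, which adds sugar to hydroxylysine, rose in both entries, the more abundant of them with 108 ± 8.56 FPKM in heat stress and 17.0 ± 3.71 FPKM in control (SD, n = 3). The other entry averaged 6.94 ± 1.87 FPKM in heat stress and 1.43 ± 0.200 FPKM in control, and its call was lost with TMM factors (log2 fold change 0.62) and without control replicate 1. All 7 entries of ER folding enzymes rose, against 71.3% of all tested entries. Among the disulphide isomerases, PDIA6 averaged 1439 ± 125 FPKM in heat stress and 202 ± 24.5 FPKM in control in entry 1, and 310 ± 63.8 FPKM in heat stress and 87.2 ± 6.84 FPKM in control in entry 2. PDIA4 entry 1 averaged 1204 ± 179 FPKM in heat stress and 240 ± 11.9 FPKM in control. Entry 2 of PDIA4 averaged 653 ± 89.3 FPKM in heat stress and 235 ± 18.9 FPKM in control. Its log2 fold change was 1.47, below the median of 1.66 over all tested entries, and -0.08 with TMM factors. The peptidyl-prolyl isomerase gene fkbp9 averaged 48.6 ± 4.21 FPKM in heat stress and 12.1 ± 4.04 FPKM in control. Under TMM factors 1 of these 7 entries, PDIA6 entry 1, still passed (log2 fold change 1.28, limma-voom adjusted p = 0.0142), and 2 had a log2 fold change below 0, neither past the test.

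Of the groups of entries by role, export from the ER had the lowest median log2 fold change, 1.38. All 6 entries of MIA3, which loads procollagen into transport carriers, the coat genes SEC24D and SEC23A and the retrieval receptor gene kdelr2 rose, with log2 fold changes of 1.28 to 1.48. This lay below the median of all tested entries, of which 71.3% rose. Under TMM factors all 6 had a log2 fold change below 0, none past the test. The 2 kdelr2 entries had the same footprint counts in all libraries and may be read as 1 gene. Of the 6 calls, 2 held when each library was left out in turn.

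Of 4 extracellular entries, 3 rose, near the share of 71.3% over all tested entries. Both entries of Timp2, an inhibitor of matrix metalloproteinases, rose. Entry 1 had 275, 179 and 280 FPKM in heat stress, against 21.4, 23.6 and 29.0 FPKM in control (log2 fold change 3.29 ± 0.25, limma-voom adjusted p = 6.20e-05). Entry 2 had 219, 568 and 344 FPKM in heat stress, against 69.1, 54.2 and 84.4 FPKM in control, and like COL8A2 entry 1 it was lowest of its group in heat stress replicate 1. With TMM factors entry 1 passed, whereas entry 2 had a log2 fold change of 0.81 and did not. The lysyl oxidase family gene loxl2b rose, with a log2 fold change of 1.37, which was -0.17 under TMM factors and did not pass there. The gene adamts3, whose product removes the amino-terminal propeptide of procollagen in mammals, averaged 1.36 ± 0.357 FPKM in heat stress and 2.95 ± 0.607 FPKM in control. It did not pass (log2 fold change -1.17, limma-voom adjusted p = 0.118), but passed with TMM factors (log2 fold change -2.72, limma-voom adjusted p = 0.00154). These factors shifted the median of all tested entries by -1.55, and 23.1% of all tested entries were called lower with them. Passing there is therefore no added support for a fall.

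**Figure D3:**
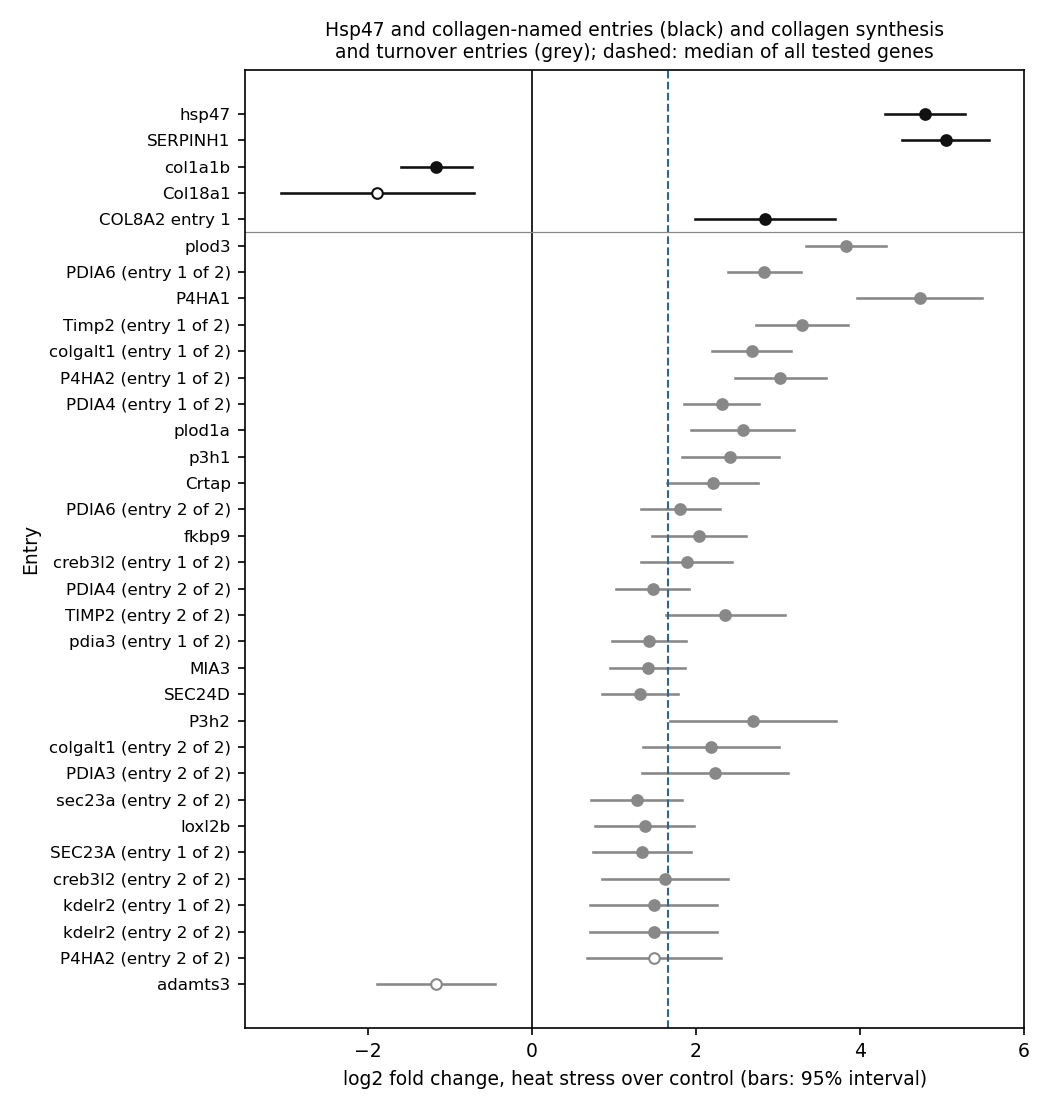
Log2 fold change of heat stress over control (horizontal axis) with 95% intervals for the 5 tested members (black, top) and 29 entries of collagen synthesis and turnover (grey). Filled points passed limma-voom at an adjusted p under 0.05, and the dashed line marks the median of all tested entries at 1.66. The points of hsp47 and SERPINH1 lie at 4.80 and 5.05, and those of col1a1b, Col18a1 and adamts3 lie below 0.

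The listed profiles most like that of hsp47 were found by the Euclidean distance over the 6 libraries between log2(FPKM + 1) values, each centred on the control mean. Among the members SERPINH1 lay at a distance of 0.479 from hsp47, COL8A2 entry 1 at 3.61 and col1a1b at 10.3. Outside the members the closest was dnajc3a, a co-chaperone of the ER, at 0.207. Its level was 1072, 1253 and 1263 FPKM in heat stress, against 40.9, 45.7 and 35.7 FPKM in control, and heat stress replicate 1 was the lowest of its group, as in hsp47. The next was ahsa1a, an activator of the Hsp90 ATPase, at 0.585, with 409 ± 18.8 FPKM in heat stress and 12.4 ± 2.84 FPKM in control (SD, n = 3). Uqcrh, a subunit of mitochondrial complex III, followed at 0.636, with 27.1, 20.3 and 32.4 FPKM in heat stress and no footprint in any control library. Its distance therefore depends on the 1 added to each FPKM. Uqcrh held 117 footprints in heat stress and passed the filter on counts through those libraries alone. Its log2 fold change by limma-voom, 6.55, likewise depends on the small amount added to each count, and is not set against that of hsp47. Entry 1 of calua, a calcium-binding protein of the secretory pathway, lay at 0.899, with 142 ± 13.8 FPKM in heat stress and 6.24 ± 2.76 FPKM in control. Entry 1 of FKBP4, an Hsp90 co-chaperone, lay at 0.952, with 363 ± 58.9 FPKM in heat stress and 17.4 ± 4.27 FPKM in control. The distance is a description of these libraries and carries no test.

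**Figure D4:**
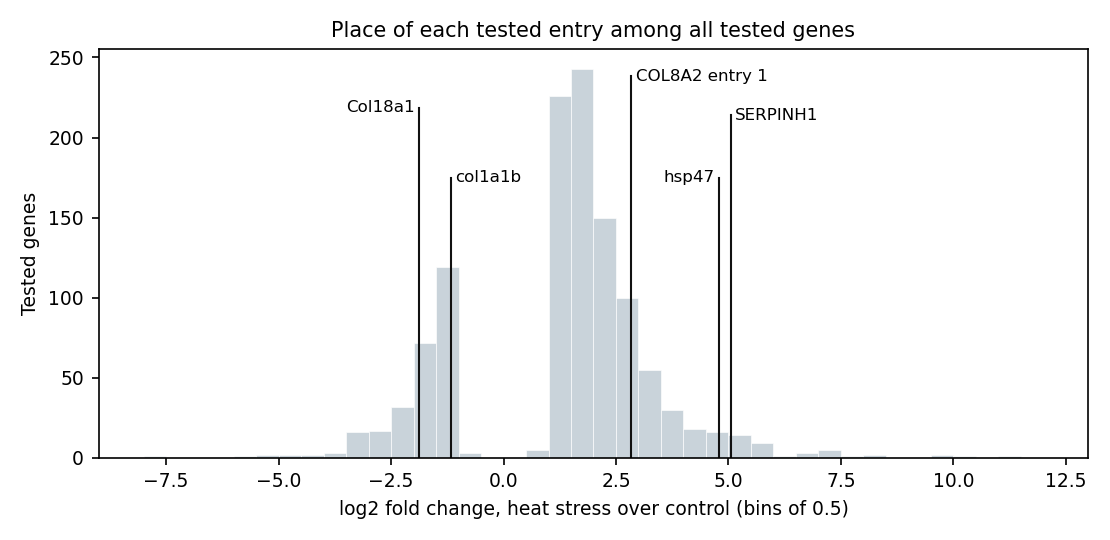
Number of tested entries (vertical axis) by log2 fold change of heat stress over control (horizontal axis, bins of 0.5), with lines at the 5 tested members. The gap around 0 is where the authors' selection removed entries, and hsp47 and SERPINH1 lie in the upper tail, in bins that hold 16 and 14 entries.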

How the data were processed

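Footprints of trout liver were cleaned with a concentrator kit and turned into small RNA libraries, per the labels' protocols. The submitters' processing notes name Bowtie2 and edgeR. Genome build, annotation and counter: not given in the sources used here. Per the file headers, the authors deposited footprint counts, FPKM and group means of it, beside a log2 fold change with its p-value and false discovery rate for each gene, entered for the unit check as other values because fixed-width cells touch. Cells hold 8 characters, so identifiers are cut and no coordinates are given. An exponent digit was lost in 12 of the deposited p-values, hsp47 and SERPINH1 among them. Of 5 member symbols, 3 (hsp47, col1a1b, col8a2) matched the RefSeq table of USDA_OmykA_1.1.

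Relative depth was recovered from count over FPKM in 94 genes with at least 200 footprints and 10 FPKM in every library. It was 72.2%, 41.4% and 82.0% of control replicate 1 in heat stress replicates 1, 2 and 3, and 76.4% and 65.5% in control replicates 2 and 3. Counts were tested with limma-voom (limma 3.58.1, R 4.3.3) on these depths, for the 1152 entries with at least 10 footprints at the median depth in 3 libraries and 15 in all. The Benjamini-Hochberg adjustment ran over 29300 genes, the authors' number estimated from their rates and ranks. The test was checked on simulated data in which most genes were unchanged and none were selected, unlike the listed entries. That check therefore does not cover the effect of the authors' selection. Ratios were tested by exact permutation (scipy 1.17.1, Python 3.11.15). The members and lists were chosen with earlier results of these data known. Named were all members, list entries with the smallest p (at most 12 in full) and the 5 closest profiles to hsp47. P3h2, PDIA3 and creb3l2 were counted and plotted only. The entries loxl2b, adamts3, MIA3, SEC24D, SEC23A, kdelr2 and the second entries of P4HA2, Timp2, PDIA4 and colgalt1 were given values after these were seen.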

Additional observations from a re-analysis of the deposited data

How the results depend on the processing

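The calls of hsp47, SERPINH1 and col1a1b kept their direction and side of the threshold under all alternatives run. Median-of-ratios factors, TMM factors and listed footprints as library sizes shifted the median of all tested entries by -1.54, -1.55 and -0.93. These scalings moved col1a1b only further down, so they are no check of its fall. Leaving out each library in turn, the log2 fold change was 4.67 to 4.94 for hsp47, 4.84 to 5.17 for SERPINH1, 2.50 to 3.38 for COL8A2 entry 1, -1.25 to -1.10 for col1a1b and -2.43 to -1.37 for Col18a1, with 4 member calls each time. COL8A2 entry 1 lost its call with median-of-ratios factors (1.302) and TMM factors (1.29). Col18a1 passed with median-of-ratios factors (-3.46), TMM factors (-3.48) and listed footprints as library sizes (-2.82), and, with the replicate number as a block, at -1.76. The block gave 1102 calls over all entries in place of 1008, and same-numbered libraries did not deviate together (correlations -0.063, -0.047 and 0.0039), so the numbers were not taken as pairs. Calls over all entries were 354 (88 higher and 266 lower) with TMM and with median-of-ratios factors and 469 (207 higher and 262 lower) with listed footprints, against 821 higher and 187 lower by recovered depth. Collagen synthesis and turnover entries called were 7, 7 and 12 under these scalings. Both kinds of factor assume that the typical listed entry did not change, although every entry was selected as changed. Leaving out libraries gave 564 to 972 calls over all entries, with 624 without heat stress replicate 3, 564 without control replicate 1 and 660 without control replicate 3, and 19 to 26 for the collagen list. The log2 difference in the chaperone ratio was 2.38 to 3.10 leaving out libraries, 5.97 for hsp47 over col1a1b, 4.15 from footprints not per length and 6.002 without COL8A2 (chosen after seeing the data), where the entries summed set the value. Few footprints limit Col18a1 and COL8A2 entry 2.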
